A study of Homo sapiens with 14 samples.

Results

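The 10 genes described here are regulators of the BCL2 family, the proteins that decide whether the outer mitochondrial membrane is breached in apoptosis. They were taken by symbol from the 16604 genes measured in either experiment, and all 10 passed the filter on low counts in both. PMAIP1, BBC3, BMF, BCL2L11 and BID are BH3-only genes, BAX and BAK1 are effectors, and MCL1, BCL2 and BCL2L1 are anti-apoptotic genes. RNA came from Kasumi-1, an established myeloblast line with an 8;21 chromosome translocation, so every group rests on 1 cell line. In the treatment experiment, cells received RB98#, a code-named compound whose dose and time the labels do not state, and were set against DMSO (n = 2 libraries each). In the knockdown experiment, cells were infected for 48 h with a lentivirus that carried an shRNA against RBPMS, an RNA-binding protein gene, or a scramble control shRNA, and both groups were then selected with puromycin for 48 h (shRBPMS and shCtrl, n = 3 libraries each). The labels do not say whether replicates came from separate cultures, so p-values may measure technical spread only.

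BCL2 family proteins act through contacts between their members. The effectors BAX and BAK1 form pores that release cytochrome c, the anti-apoptotic members hold effectors and BH3-only proteins in check, and BH3-only proteins bind the anti-apoptotic members or switch on the effectors. Each BH3-only protein has its own preferences, with NOXA, the product of PMAIP1, binding mainly MCL1, while BIM, the product of BCL2L11, binds all the main anti-apoptotic proteins. Acute myeloid leukemia cells often depend on MCL1 or BCL2, and the BCL2 inhibitor venetoclax is used in this disease.

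Library totals were 13.85 to 15.19 M counts (M, 1e6) with RB98# and 14.18 to 15.35 M with DMSO, against 25.22 to 27.66 M in shRBPMS and 24.03 to 34.38 M in shCtrl cells. All 6 myeloblast markers were present in both tables, with a summed 18310 to 19350 CPM (TMM-scaled counts per 1e6) with RB98# and 16470 to 16580 with DMSO, and 18020 to 20400 in shRBPMS and 16260 to 21530 in shCtrl cells. Of 12 markers of other cell types, 3 were listed in the RB98# table, with a summed 129.1 to 131.5 CPM with RB98# and 143.0 to 148.6 CPM with DMSO. The knockdown table listed 5, with a summed 84.23 to 173.6 CPM in shRBPMS and 127.0 to 447.9 CPM in shCtrl cells. Among them CD3E had a log2 fold change of -3.08 in the knockdown with group alone (adjusted p = 0.0335 by edgeR). It rests on few reads, with 5, 3 and 4 counts in shRBPMS and 42, 34 and 29 in shCtrl replicates 1, 2 and 3. In the blocked fit PECAM1 had -1.38 and EPCAM 0.52 (adjusted p = 0.00203 and 0.00530 by edgeR). PECAM1 made up most of the knockdown sums, with 105, 48.2 and 45.7 CPM in shRBPMS and 404, 96.6 and 103 CPM in shCtrl cells. Of the 6 myeloblast markers, 3 rose and 3 fell with RB98#, where 37.8% of all genes tested changed. In the blocked fit 1 rose and 1 fell, where 28.1% changed. CD33 had 1.71 in the knockdown with group alone (adjusted p = 0.0246 by edgeR) and -0.84 with RB98# (adjusted p = 1.74e-05 by edgeR). KIT and CD34 had -0.40 and -0.37 with RB98# (adjusted p = 1.86e-06 and 3.81e-05 by edgeR). In the blocked fit RUNX1T1 had -0.68 (adjusted p = 0.00535 by edgeR) and CD33 1.69 (adjusted p = 0.00118 by edgeR). The part of these markers in the results was not tested. RBPMS itself had 2.53, 3.34 and 3.08 CPM in shRBPMS replicates 1, 2 and 3, below 20.4, 7.24 and 7.39 CPM in shCtrl replicates 1, 2 and 3. Its log2 fold change was -1.96 with group alone, which did not pass (adjusted p = 0.0846 by edgeR). In the blocked fit it was -1.79 (adjusted p = 0.0106 by edgeR). With RB98# it had 6.62 and 8.06 CPM, against 7.17 and 6.40 CPM with DMSO. In the knockdown the library names fall into 2 sets, set 1 with replicate 1 and set 2 with replicates 2 and 3 of each group, and no source used here says what distinguishes them. The mitochondrial genome's transcripts made up 13.22% of counts for shRBPMS replicate 1 and 15.24% for shCtrl replicate 1, against 6.20% to 6.95% in the other 4 libraries.

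With RB98#, 2 BH3-only genes and 2 anti-apoptotic genes rose together. PMAIP1 rose 5.64-fold, BBC3 3.44-fold, MCL1 1.84-fold and BCL2 1.78-fold over DMSO, while BCL2L1 fell by 0.63 and BAK1 by 0.31 on the log2 scale (n = 2 each). In all, 4 of the 10 members rose and 2 fell (edgeR's quasi-likelihood test with Benjamini-Hochberg adjustment at 0.05), where 37.8% of the 12324 genes tested changed (20.5% rose and 17.3% fell). By role, 2 of 5 BH3-only genes rose, 1 of 2 effectors fell, and 2 of 3 anti-apoptotic genes rose and 1 fell. The median log2 fold change was 0.12 over the 7 pro-apoptotic members and 0.83 over the 3 anti-apoptotic members, against 6.53e-05 over all genes tested. Both RB98# libraries lay above both DMSO libraries for 5 members and below them for 3, where 68.3% of all genes tested did not overlap in this way (34.3% higher and 34% lower). In bulk RNA, fewer cells of a kind and less RNA per cell cannot be told apart.

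PMAIP1, on chromosome 18 at 59899948 to 59904306 (plus strand, GRCh38), encodes NOXA, a BH3-only protein whose binding marks MCL1 for breakdown. Its level was 180.1 and 145.5 CPM in RB98# replicates 1 and 2, against 28.2 and 29.6 CPM in DMSO replicates 1 and 2. Both RB98# libraries stood far above both DMSO libraries. The log2 fold change was 2.50 (SE 0.09, adjusted p = 1.30e-16 by edgeR).

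BBC3 (chromosome 19, 47220822 to 47232766, minus strand, GRCh38) encodes PUMA, which binds all the main anti-apoptotic proteins. It had 2.66 and 3.51 CPM with RB98#, from 39 and 47 counts, against 1.43 and 0.376 CPM with DMSO, from 21 and 6 counts. The groups did not overlap, but the DMSO libraries lay far apart and all 4 counts were low. The log2 fold change was 1.78 (SE 0.43, adjusted p = 0.00206 by edgeR). Without DMSO replicate 2 it was 1.10 and the call was lost (adjusted p = 0.0716 by edgeR). The transcribed region of BBC3 holds the microRNA genes MIR3190 and MIR3191.

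The promoters of these 2 BH3-only genes are shown because they made the largest moves of the family with RB98#. Given are the 250 bases before the RefSeq start site, on the gene's own strand (GRCh38.p14). For PMAIP1 this is chr18:59899746-59899995 on the plus strand, and the capitals mark ACGTCA, the core TGACGT of a cAMP response element read on the other strand. For BBC3 it is chr19:47232668-47232917 on the minus strand, and the capitals mark the E-box CACGTG and the AP-1 match TGAGTCA.
PMAIP1: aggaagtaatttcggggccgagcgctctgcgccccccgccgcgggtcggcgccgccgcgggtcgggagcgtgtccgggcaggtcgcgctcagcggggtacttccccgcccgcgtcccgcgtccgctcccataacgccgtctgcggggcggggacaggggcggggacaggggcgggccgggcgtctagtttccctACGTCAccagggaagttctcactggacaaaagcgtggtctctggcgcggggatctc
BBC3: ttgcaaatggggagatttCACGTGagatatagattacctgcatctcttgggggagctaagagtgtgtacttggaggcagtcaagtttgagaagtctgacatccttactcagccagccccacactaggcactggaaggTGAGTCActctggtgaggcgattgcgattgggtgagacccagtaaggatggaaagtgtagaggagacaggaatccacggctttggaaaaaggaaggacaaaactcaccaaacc

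The 250-base windows of 35116 RefSeq promoters, of which 15 belonged to 9 members and none to MCL1, were searched on both strands. The full cAMP response element TGACGTCA was in 1.65% of them and in no member, and its core TGACGT, which lies within the full element and was added after that search gave no member, was in 7.10% and in PMAIP1 alone among the members. The AP-1 motif TGANTCA was in 6.57% and, among members, in BBC3. The E-box CACGTG was in 6.34% and, among members, in BAX, BBC3 and BID. The C/EBP-ATF motif TGATGNAAT was in 0.888% and in no member, and the GC box GGGCGG was in 42.6% and in 6 members. The decamer to which p53 binds, searched as a single copy, was in 5.57% and, among members, in BAK1. A match is a run of letters and does not show that a factor bound there.

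The other BH3-only genes did not pass the test with RB98#. BCL2L11, which encodes BIM, had 40.7 and 39.6 CPM with RB98# and 38.6 and 35.6 CPM with DMSO (log2 fold change 0.12, adjusted p = 0.352 by edgeR). BMF, whose product is tied to the cytoskeleton in resting cells, had 8.05 and 10.6 CPM with RB98# and 7.72 and 8.28 CPM with DMSO. Its groups overlapped, with a log2 fold change of 0.22 (SE 0.18, adjusted p = 0.357 by edgeR). BID, which links death receptors to mitochondria once caspase-8 cuts it, had 48.3 and 51.2 CPM with RB98# and 55.4 and 54.1 CPM with DMSO. Those groups did not overlap, but the log2 fold change was -0.14 and did not pass (adjusted p = 0.206 by edgeR). Scaled by library totals alone, BID passed as lower, at -0.24 (adjusted p = 0.0268 by edgeR).

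Among the effectors, BAX had 42.0 and 46.7 CPM with RB98# and 46.9 and 41.1 CPM with DMSO. The log2 fold change was 0.01 (adjusted p = 0.936 by edgeR), and both groups covered the same range. BAK1 had 22.2 and 27.2 CPM with RB98#, below 31.4 and 29.9 CPM with DMSO (log2 fold change -0.31, SE 0.11, adjusted p = 0.0267 by edgeR). The call on BAK1 was lost with DESeq2 (adjusted p = 0.112) and without RB98# replicate 1 (log2 fold change -0.18), DMSO replicate 1 (-0.28) or DMSO replicate 2 (-0.35).

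All 3 anti-apoptotic genes changed with RB98#, and in different directions. MCL1 (chromosome 1, 150574551 to 150579738, minus strand, GRCh38), whose protein is short-lived and is the main partner of NOXA, had 510.6 and 461.4 CPM with RB98#, against 260.0 and 267.7 CPM with DMSO. Every RB98# library lay above every DMSO library, with a log2 fold change of 0.88 (SE 0.06, adjusted p = 2.06e-11 by edgeR). BCL2, the founding gene of the family, had 103.0 and 94.4 CPM with RB98#, against 56.7 and 54.4 CPM with DMSO (log2 fold change 0.83, SE 0.08, adjusted p = 7.70e-09 by edgeR). BCL2L1, which encodes BCL-XL, had 29.8 and 33.3 CPM with RB98#, against 49.8 and 47.9 CPM with DMSO. It was 1.55-fold lower with RB98# (log2 fold change -0.63, SE 0.09, adjusted p = 9.82e-06 by edgeR).

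The BCL2 promoter is shown because BCL2 moved in opposite directions in the 2 experiments. It is chr18:63319770-63320019 on the minus strand (GRCh38.p14), and the capitals mark a CArG box, the kind of element that serum response factor reads, which 1.16% of the RefSeq windows hold on either strand. This window precedes a RefSeq start site but lies inside the gene, whose annotated start is 63320128.
BCL2: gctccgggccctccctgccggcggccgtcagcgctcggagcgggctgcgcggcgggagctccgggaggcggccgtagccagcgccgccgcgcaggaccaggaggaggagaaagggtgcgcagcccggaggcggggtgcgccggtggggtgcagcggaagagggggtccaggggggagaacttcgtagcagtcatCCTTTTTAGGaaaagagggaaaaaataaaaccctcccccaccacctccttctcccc

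**Figure D1:**
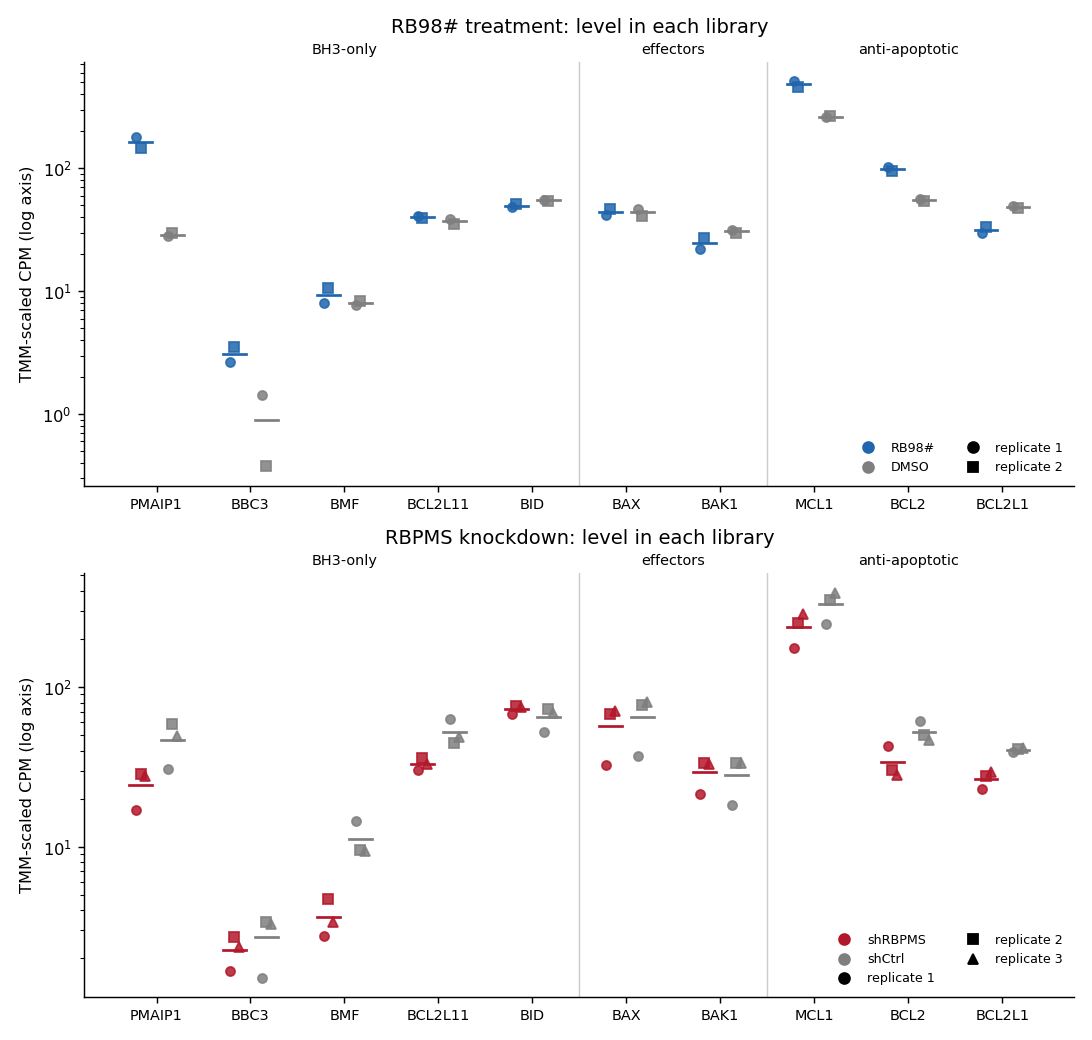
TMM-scaled CPM (log axis) of the 10 members in each library of the treatment experiment (upper panel, RB98# left of DMSO) and of the knockdown (lower panel, shRBPMS left of shCtrl); points are libraries, their shape is the replicate number, and bars are group means. PMAIP1 stands at 180.1 and 145.5 CPM with RB98# against 28.2 and 29.6 CPM with DMSO, and replicate 1 of both knockdown groups stands apart for BAX, with 32.6 CPM in shRBPMS and 37.3 CPM in shCtrl cells.

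Levels of different genes were compared as CPM per kb of gene length. The lengths were those implied by the authors' length-scaled columns of the RB98# experiment, and were used for the knockdown libraries as well. Those lengths were 6.23 kb for MCL1 and 4.20 kb for BCL2L1, longer than the joined GENCODE v29 exons (4371 and 3314 bases), so the place of these genes depends on the length used. On this scale MCL1 had the highest level in all 4 groups. With RB98# its mean was 78.0 CPM per kb and that of PMAIP1 was 74.4 CPM per kb, and their libraries overlapped. BAX followed at 17.1 CPM per kb, and BBC3 was lowest at 0.967 CPM per kb. With DMSO, MCL1 had 42.3, BAX 16.98, BAK1 13.8 and PMAIP1 13.2 CPM per kb, and BAK1 and PMAIP1 overlapped. Below them stood BID at 12.4, BCL2L1 at 11.6, BCL2L11 at 5.57, BCL2 at 4.40, BMF at 1.47 and BBC3 at 0.284 CPM per kb, with no overlap between neighbours. BCL2 and BCL2L1 overlapped with RB98#, at 7.81 and 7.50 CPM per kb, while with DMSO BCL2 lay below BCL2L1.

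BH3-only genes made up a larger share of the family's RNA with RB98# than with DMSO, and PMAIP1 was most of that share. BH3-only genes held 45.1% and 42.1% of the 10 members' summed CPM per kb with RB98#, against 26.8% and 27.1% with DMSO. Effectors held 11.7% and 14.6% with RB98#, against 26.2% and 24.3% with DMSO. The anti-apoptotic share was 43.2% and 43.3% with RB98#, against 47.0% and 48.6% with DMSO. These shares are parts of a total, and the sums moved otherwise. The anti-apoptotic sum was higher with RB98#, at 97.2 and 89.4 CPM per kb against 58.0 and 58.7 with DMSO. Effector sums overlapped, at 26.2 and 30.3 CPM per kb with RB98# against 32.3 and 29.3 with DMSO. The BH3-only sum was 101.6 and 87.0 CPM per kb with RB98#, against 33.1 and 32.7 with DMSO. No share overlapped between the groups, and PMAIP1 alone made up 81.0% and 76.4% of the BH3-only sum with RB98#, against 39.0% and 41.3% with DMSO. The ratio of PMAIP1 to MCL1 per kb was 1.00 and 0.898 with RB98#, against 0.309 and 0.314 with DMSO. The ratio of BAX to BCL2 ran the other way, at 1.99 and 2.41 with RB98# against 4.03 and 3.68 with DMSO. The ratio of BCL2 to BCL2L1 was 1.15 and 0.943 with RB98#, against 0.379 and 0.378 with DMSO. These shares and ratios describe the libraries and carry no test.

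**Figure D2:**
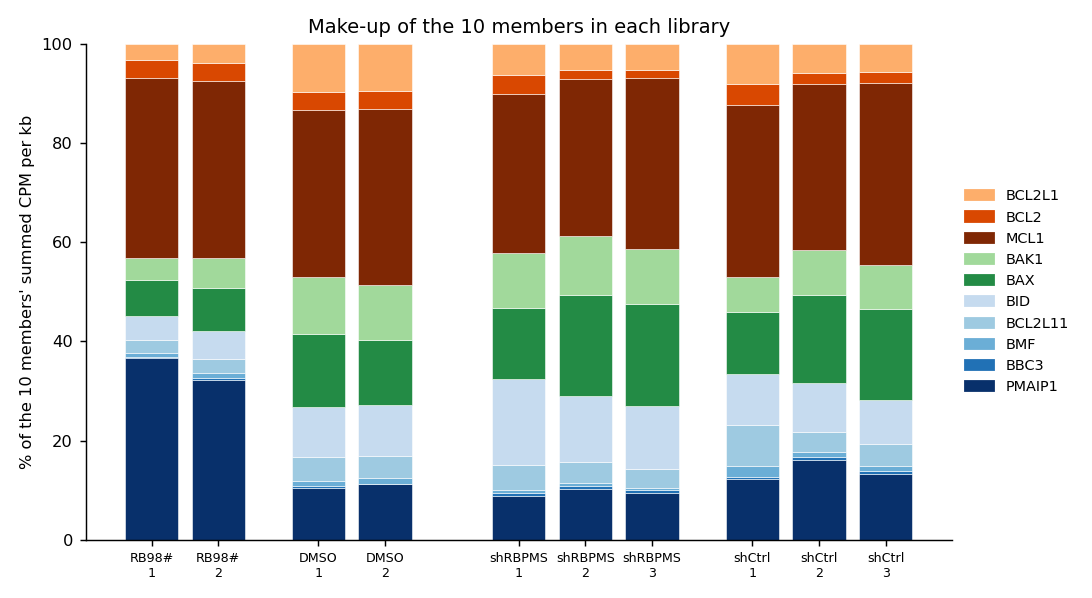
Share of each member in the summed CPM per kb of all 10 members (%, stacked bars), per library, with RB98# left of DMSO and shRBPMS left of shCtrl; blues are BH3-only genes, greens effectors and oranges anti-apoptotic genes. The BH3-only share is 45.1% and 42.1% with RB98# against 26.8% and 27.1% with DMSO, and 32.5%, 29.0% and 27.0% in shRBPMS against 33.4%, 31.6% and 28.3% in shCtrl cells.

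After RBPMS knockdown no member rose, and the genes that fell included BH3-only and anti-apoptotic genes alike. In the design of group alone only BMF fell, where 1.97% of the 16215 genes tested changed (0.629% rose and 1.34% fell). Same-numbered libraries deviated together, and replicates 2 and 3 did so across numbers too. The blocked fit also held a term for the replicate number. In it 6 of the 10 members fell and none rose, where 28.1% of genes changed (13.3% rose and 14.8% fell). These were PMAIP1, BMF and BCL2L11 among the 5 BH3-only genes, all 3 anti-apoptotic genes and neither effector. The median log2 fold change in the blocked fit was -0.54 over the members and 0.02 over all genes tested. By libraries, 5 members lay lower in every shRBPMS library than in every shCtrl library (PMAIP1, BMF, BCL2L11, BCL2 and BCL2L1), and none lay higher, where 25.9% of all genes did not overlap (12.3% higher and 13.6% lower).

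BMF (chromosome 15, 40087890 to 40108892, minus strand, GRCh38) had the largest change of the family. It had 2.77, 4.67 and 3.40 CPM in shRBPMS replicates 1, 2 and 3, against 14.4, 9.57 and 9.45 CPM in shCtrl replicates 1, 2 and 3. The groups lay well apart, and replicate 1 held both the lowest and the highest value. The log2 fold change was -1.62 with group alone (SE 0.28, adjusted p = 0.0429 by edgeR) and -1.60 in the blocked fit (SE 0.24, adjusted p = 0.00429 by edgeR). The call with group alone was lost without any 1 of the 6 libraries, with log2 fold changes of -1.85 to -1.40 and adjusted p of 0.0601 to 0.190 by edgeR. BMF-AS1 lies on the other strand over 284 bases of its exons, and the strand setting of the counting is not given in the sources used here, so reads of the pair cannot be told apart.

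PMAIP1 moved opposite to its change with RB98#. It had 16.96, 28.5 and 27.7 CPM in shRBPMS replicates 1, 2 and 3, against 30.8, 58.8 and 49.7 CPM in shCtrl replicates 1, 2 and 3. Each shRBPMS library stood below its same-numbered control by a similar factor, while the level of replicate 1 was lower in both groups. The log2 fold change was -0.92 in the blocked fit (SE 0.08, adjusted p = 0.000642 by edgeR) and -0.93 with group alone (SE 0.30, adjusted p = 0.176 by edgeR).

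BCL2L11 had 30.1, 36.1 and 33.0 CPM in shRBPMS replicates 1, 2 and 3, against 62.8, 44.9 and 49.0 CPM in shCtrl replicates 1, 2 and 3. It fell by 0.65 on the log2 scale in the blocked fit (SE 0.13, adjusted p = 0.0133 by edgeR), with an adjusted p of 0.104 by edgeR with group alone. MIR4435-2HG overlaps 727 bases of its exons on the other strand. BBC3 had 1.67, 2.70 and 2.36 CPM in shRBPMS and 1.52, 3.37 and 3.28 CPM in shCtrl cells, and its groups overlapped (log2 fold change -0.25 in the blocked fit, adjusted p = 0.392 by edgeR). BID had 67.4, 75.7 and 75.4 CPM in shRBPMS and 52.6, 73.2 and 68.4 CPM in shCtrl cells, with a log2 fold change of 0.18 that did not pass in the blocked fit (adjusted p = 0.128 by edgeR).

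The promoters of BMF and BCL2L11 are shown because these BH3-only genes fell in the knockdown and did not pass with RB98#. That of BMF is chr15:40108880-40109129 on the minus strand (GRCh38.p14), the window nearest the gene's annotated start of the 2 that RefSeq gives, and of the motifs searched it held only 1 GC box, which is not capitalised. That of BCL2L11 is chr2:111120664-111120913 on the plus strand, and the capitals mark the forkhead motif GTAAACA, which 2.98% of the RefSeq windows hold. This window precedes a RefSeq start site but lies inside the gene, whose annotated start is 111119378.
BMF: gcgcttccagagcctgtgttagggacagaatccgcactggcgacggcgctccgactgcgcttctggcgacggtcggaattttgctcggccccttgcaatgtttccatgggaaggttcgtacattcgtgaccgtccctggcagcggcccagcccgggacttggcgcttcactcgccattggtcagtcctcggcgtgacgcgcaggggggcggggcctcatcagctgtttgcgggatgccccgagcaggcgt
BCL2L11: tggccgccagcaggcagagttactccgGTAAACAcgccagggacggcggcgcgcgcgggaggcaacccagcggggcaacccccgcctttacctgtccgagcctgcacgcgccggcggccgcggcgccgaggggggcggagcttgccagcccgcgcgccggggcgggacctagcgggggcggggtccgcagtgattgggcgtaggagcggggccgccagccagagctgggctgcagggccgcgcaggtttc

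Neither effector passed the test in the knockdown, with group alone or in the blocked fit. BAX had 32.6, 67.7 and 71.1 CPM in shRBPMS and 37.3, 77.5 and 80.8 CPM in shCtrl cells, so that replicate 1 was low in both groups and the groups overlapped. Its log2 fold change was -0.19 in the blocked fit (adjusted p = 0.0588 by edgeR). With the label set as a covariate, or in set 2 alone, BAX passed as lower at the same log2 fold change (adjusted p = 0.0256 and 0.00214 by edgeR). BAK1 had 21.5, 33.6 and 32.8 CPM in shRBPMS and 18.2, 33.4 and 33.3 CPM in shCtrl cells, with a log2 fold change of 0.07 in the blocked fit (adjusted p = 0.583 by edgeR). GGNBP1 overlaps 91 bases of BAK1's exons on the other strand.

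The 3 anti-apoptotic genes fell by like amounts in the blocked fit. BCL2 had 42.9, 30.3 and 28.2 CPM in shRBPMS, against 61.1, 50.1 and 46.8 CPM in shCtrl replicates 1, 2 and 3. Its groups did not overlap, and the log2 fold change was -0.66 (SE 0.08, adjusted p = 0.00173 by edgeR; with group alone adjusted p = 0.173). BCL2L1 had 22.8, 27.8 and 29.2 CPM in shRBPMS, against 39.0, 40.7 and 41.2 CPM in shCtrl cells. Its log2 fold change was -0.60 (SE 0.08, adjusted p = 0.00291 by edgeR; with group alone adjusted p = 0.0880), and ABALON overlaps 943 bases of its exons on the other strand. MCL1 had 175.7, 253.2 and 287.6 CPM in shRBPMS, against 249.8, 348.9 and 391.0 CPM in shCtrl cells. The groups of MCL1 overlapped, each shRBPMS library lay below its same-numbered control, and the log2 fold change was -0.47 in the blocked fit (SE 0.06, adjusted p = 0.00184 by edgeR; with group alone adjusted p = 0.400). In the authors' deposited table, adjusted p was 0.0665 for MCL1, 0.00370 for BCL2 and 0.0140 for BCL2L1.

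**Figure D3:**
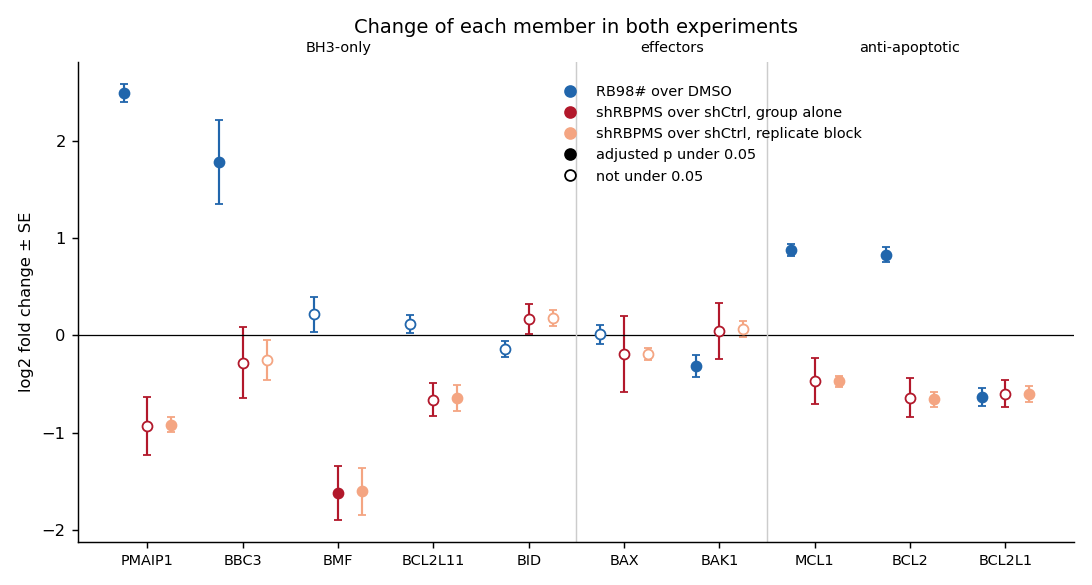
Log2 fold change with its SE (vertical axis) of each member with RB98# over DMSO (blue) and shRBPMS over shCtrl with group alone (red) and in the blocked fit (orange); filled points passed an adjusted p of 0.05 in edgeR. BCL2L1 is the only member filled on the same side of 0 in the treatment and in the blocked knockdown fit, at -0.63 and -0.60.

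In the knockdown the shares of the roles, which were not tested, overlapped between the groups. BH3-only genes held 32.5%, 29.0% and 27.0% of the members' summed CPM per kb in shRBPMS, against 33.4%, 31.6% and 28.3% in shCtrl replicates 1, 2 and 3. Effectors held 25.4%, 32.2% and 31.6% in shRBPMS, against 19.6%, 26.8% and 27.1% in shCtrl cells, and the anti-apoptotic genes 42.1%, 38.7% and 41.4% against 47.0%, 41.6% and 44.7%. Within each replicate number the effector share was higher and the other 2 shares lower in shRBPMS cells. The shares are parts of a total, and the sum of every role was lower in shRBPMS cells within each number. The effector sum was 22.29, 41.26 and 42.24 CPM per kb in shRBPMS, against 22.61, 44.98 and 46.21 in shCtrl replicates 1, 2 and 3. These sums were not tested either. The ratio of BAX to BCL2 was 3.70, 10.9 and 12.3 in shRBPMS, against 2.97, 7.54 and 8.42 in shCtrl cells. The ratio of PMAIP1 to MCL1 was 0.275, 0.320 and 0.274 in shRBPMS, against 0.350, 0.480 and 0.362 in shCtrl cells. By level, MCL1 at 38.3 CPM per kb led in shRBPMS cells, followed by BAX at 22.0 and BID at 16.4, of which BAX and BID overlapped. In shCtrl cells MCL1 had 52.9, BAX 25.2 and PMAIP1 21.2 CPM per kb, and BAX and PMAIP1 overlapped. PMAIP1 stood below BAK1 in shRBPMS cells, at 11.1 against 13.2 CPM per kb, and both overlapped.

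Within the label sets, the log2 ratio of shRBPMS over shCtrl had the same sign in both sets for all 6 members called in the blocked fit. The test of the difference between sets passed for BMF, BCL2L11 and BID, where it passed for 17.3% of all genes (8.25% higher and 9.01% lower in set 2). It was -0.86 in set 1 and -0.95 in set 2 for PMAIP1, -0.51 and -0.45 for MCL1, -0.51 and -0.73 for BCL2, and -0.77 and -0.52 for BCL2L1. BMF had -2.38 in set 1 and -1.26 in set 2, and BCL2L11 had -1.06 and -0.44. For these 2 genes the ratio was further from 0 in set 1, as it was for RBPMS itself, with -3.01 in set 1 and -1.19 in set 2. That also held for MCL1, BCL2L1, BAX, BAK1 and BID, which lay above 0 at 0.36 and 0.09. It did not hold for PMAIP1, BCL2 and BBC3. Set 1 holds 1 library per group, so its values have no spread of their own.

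**Figure D4:**
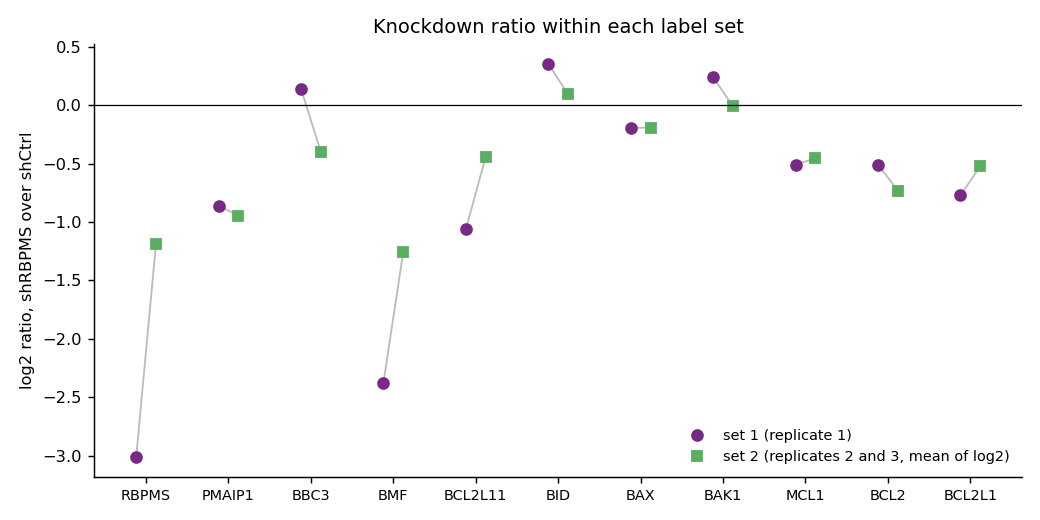
Log2 ratio of shRBPMS over shCtrl (vertical axis) of RBPMS and the 10 members in set 1 (circles, replicate 1) and set 2 (squares, mean of replicates 2 and 3 on the log2 scale). BMF lies at -2.38 and -1.26 and BCL2L11 at -1.06 and -0.44, while MCL1 lies at -0.51 and -0.45.

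The effects of the compound and of the knockdown were compared in 1 fit of all 10 libraries over 12126 genes present in both tables, as the log2 effect of RB98# minus that of the knockdown. The difference passed for 4 members, all higher, where it passed for 8.15% of the genes tested (4.79% higher and 3.36% lower). It was 3.40 for PMAIP1 (SE 0.43, adjusted p = 0.00507 by edgeR), 1.82 for BMF (adjusted p = 0.0296 by edgeR), 1.46 for BCL2 (adjusted p = 0.0159 by edgeR) and 1.33 for MCL1 (adjusted p = 0.0452 by edgeR). Thus the log2 effect of RB98# lay above that of the knockdown for a BH3-only gene and its anti-apoptotic partner, PMAIP1 and MCL1. The call on MCL1 was lost without shRBPMS replicate 2 or 3, and without shCtrl replicate 2 or 3. That on BMF was lost without shRBPMS replicate 3. For BCL2L1, which fell in both experiments, the difference was -0.05 (SE 0.19, adjusted p = 0.912 by edgeR). With the replicate block the difference passed for 8 members, adding BBC3 at 2.02 and BCL2L11 at 0.74 on the higher side and BID at -0.33 and BAK1 at -0.40 on the lower side, where 40.8% of genes passed (20.7% higher and 20.1% lower). Without any 1 of the RB98# or DMSO libraries, PMAIP1 was the only member that passed. The experiments also differ in infection, selection and depth, and a difference between them cannot be told apart from those.

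Other genes of the pathway were counted by list, and no list was tested as a set. Over all genes tested, 37.8% changed with RB98# (20.5% rose and 17.3% fell). In the blocked knockdown fit 28.1% changed (13.3% rose and 14.8% fell). Of 12 genes for transcription regulators of the members, 7 rose and 2 fell with RB98#, with a median log2 fold change of 0.40. JUN, a subunit of AP-1, had a log2 fold change of 3.93, FOXO3, a forkhead factor that drives BCL2L11 and BBC3, 0.90, and ATF4, a factor of the integrated stress response that drives PMAIP1, 0.85. In the blocked knockdown fit 1 rose and 3 fell, with FOXO1, another forkhead factor, at -1.32, E2F1 at -0.47 and STAT5A at -0.32. Of genes for the turnover of MCL1 and BIM, 4 of 7 rose and 1 fell with RB98#, and 4 of 8 fell and none rose in the blocked knockdown fit. The ubiquitin ligase genes FBXW7 and HUWE1, whose products mark MCL1 for breakdown, had log2 fold changes of 0.40 and 0.38 with RB98#, and DUSP6, an ERK phosphatase gene, -0.71. USP9X, which encodes a deubiquitinase that stabilises MCL1, had 0.36 with RB98#, and MARCHF5, also of this list, 0.37. In the blocked knockdown fit USP9X had -0.88, USP13 -0.33 and DUSP6 -0.30. Each gene named from a pathway list passed edgeR's test at an adjusted p of 0.05 in the fit named beside its value.

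Of 13 p53 targets outside the family, 5 rose and 2 fell with RB98#, and 2 rose and 2 fell in the blocked knockdown fit. The shares of all genes tested were 20.5% higher and 17.3% lower with RB98#, and 13.3% and 14.8% in the blocked knockdown fit. CDKN1A, the cell cycle inhibitor p21, had a log2 fold change of 1.99 with RB98# and -1.22 in the blocked knockdown fit. BTG2, an antiproliferative gene, had 2.42 with RB98# and AEN, a nuclease gene, -0.68. RRM2B, a ribonucleotide reductase subunit gene, had 1.03 and FDXR, a mitochondrial reductase gene, -0.90 in the blocked knockdown fit. Of 11 other BCL2 family genes, 5 rose and none fell with RB98#, with BNIP1 at 0.65, BOK at 0.50 and BNIP2 at 0.36. In the blocked knockdown fit 6 rose and 2 fell, with a median of 0.42, and BOK, an effector-like gene, had 0.74, BAD, a BH3-only gene, 0.73 and BCL2L12 0.61.

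Downstream of the membrane, genes were called in both directions. Beside the counts below, 37.8% of all genes tested changed with RB98# and 28.1% in the blocked knockdown fit. Of 13 apoptosome and caspase genes, 2 rose and 2 fell with RB98#, with the executioner CASP6 at -0.63, the initiator CASP9 at 0.50 and CYCS, cytochrome c itself, at 0.42. In the blocked knockdown fit 1 rose and 4 fell, with the initiator CASP10 at -0.47 and the nuclease gene ENDOG at 0.54. Of 5 caspase inhibitors, BIRC2 at 0.72 and BIRC6 at 0.19 rose with RB98#, and BIRC5 at -0.22 fell in the blocked knockdown fit. Of 8 outer membrane partners, 3 fell with RB98# (PGAM5 at -0.46, TOMM22 at -0.25 and VDAC3 at -0.24), and PGAM5 at 0.30 rose in the blocked knockdown fit. Of 9 death receptor genes, 2 rose and 3 fell with RB98#, with the receptor TNFRSF10B at 1.10, its ligand TNFSF10 at -1.39 and the kinase RIPK3 at -1.22. In the blocked knockdown fit TNFRSF1A had 0.38 and RIPK1 -0.35.

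**Figure D5:**
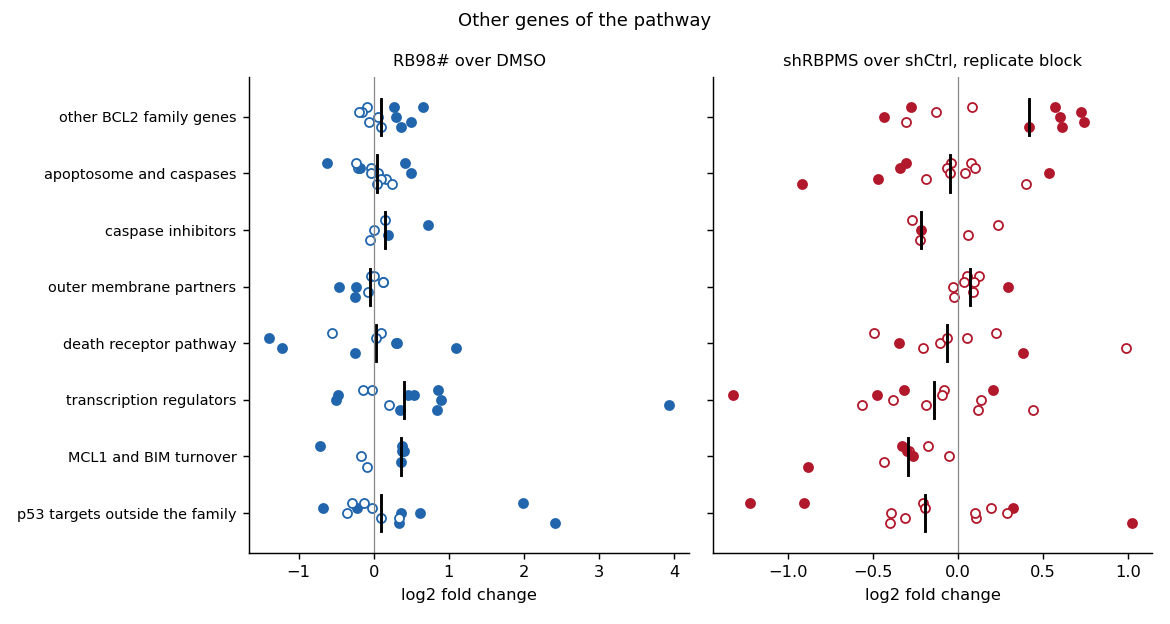
Log2 fold change (horizontal axis) of the genes of 8 pathway lists with RB98# over DMSO (left) and for shRBPMS over shCtrl in the blocked fit (right); filled points passed an adjusted p of 0.05 in edgeR and black bars are list medians. The median of the other BCL2 family genes is 0.09 with RB98# and 0.42 in the knockdown, and JUN is the point farthest right in the left panel, at 3.93.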

How the data were processed

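RNA-seq of Kasumi-1 cells in 10 libraries was used, and the other 4 of 14 samples (m6A sequencing and RNA immunoprecipitation) were not analysed here. Named in the submitters' processing notes, with no role, are featureCounts 2.0.1, DESeq2 1.32.0, fastp 0.22.0, StringTie and HISAT2 2.2.1, and the build hg38/GRCh38. Per the file headers, the deposited count columns hold raw counts per gene and library. The authors' length-scaled columns of the RB98# table behave as FPKM (a count over 1 length per gene and the library total). They served only to give gene lengths, which were used for both experiments. The authors' adjusted signal columns of the knockdown table served as an alternative only. The deposited log2 fold change and p-value columns are the authors' own comparison and are quoted where named. The knockdown table held 16405 genes. The RB98# table held 12437 lines, of which 112 were repeats of an identifier and were dropped, leaving 12325 genes.

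Tests were two-sided quasi-likelihood F tests of edgeR 4.0.16 in R 4.3.3 on counts, with TMM factors, filterByExpr (count 10, total 15) and Benjamini-Hochberg adjustment over all genes tested at 0.05. Each experiment was fitted alone. Levels are CPM scaled by TMM factors. Alternatives used DESeq2 1.42.0, limma 3.58.1, other scalings, no filter, each library left out, the label set, and the replicate number as a block. Same-numbered knockdown libraries deviated together from their group means (Pearson's r 0.875, 0.817 and 0.844 over 8966 genes), while replicates 2 and 3 did so as strongly across numbers (0.812 and 0.817). The blocked fit took the numbers as pairs, but these correlations set replicate 1 apart and do not pair replicates 2 and 3 by number. Within each group the counts of replicates 2 and 3 lay close, with a chi-square per degree of freedom of 2.98. Against replicate 1 it was 130 to 210. Replicates 2 and 3 may therefore not be independent. Depth was 13.85 to 34.38 M counts (M, 1e6) per library, and replicates of low genes such as BBC3 are limited by counting.

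All 10 members and RBPMS are named, and from each other list up to 3 genes past 0.05 with the largest absolute log2 fold change per comparison. One gene that this rule names is not reported here. The members and lists were chosen with earlier results of these data known. Promoters are from RefSeq (GRCh38.p14).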

Additional observations from a re-analysis of the deposited data

Results flagged for a closer look

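For 3 members the knockdown effect differed between the label sets, by an interaction term in edgeR (set 2 minus set 1, log2), a test that passed for 17.3% of the 16215 genes. The difference was 1.14 for BMF (adjusted p = 0.00289 by edgeR), whose log2 ratio of shRBPMS over shCtrl was -2.38 in set 1 and -1.26 in set 2. It was 0.62 for BCL2L11 (adjusted p = 0.000360 by edgeR), with ratios of -1.06 and -0.44, and -0.26 for BID (adjusted p = 0.0409 by edgeR), with ratios of 0.36 and 0.09. RBPMS differed in the same way as BMF, by 1.82 (adjusted p = 7.17e-06 by edgeR). Set 1 holds 1 library per group, so the test takes its spread from replicates 2 and 3, and shRBPMS and shCtrl replicate 1 also had the larger mitochondrial shares. Their part in these differences was not tested.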

How the results depend on the processing

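The number of genes called in the knockdown was 320 with group alone and depended on the design. It was 1338 with DESeq2, 4549 with the replicate block, 5810 with the label set as a covariate, 6830 in set 2 alone, 2339 on the authors' adjusted columns, and 2681 with the set as a covariate after replicates 2 and 3 were added up (an alternative chosen after seeing the data). Members called were 1 with group alone and 3, 6, 7, 7, 5 and 6 under these settings in the same order, and the member added among the 7 was BAX. Without 1 library, edgeR called 0 to 322 genes and 0 members, with 1866 to 3058 genes at an unadjusted p under 0.05. Pathway list genes called were 4 with group alone and 34 with the replicate block. With RB98#, leaving out 1 library gave 2731 to 5028 genes, against 4659, and 4 to 6 members, against 6. The replicate numbers do not pair the RB98# libraries (r = -0.0894), and a block there gave 4430 genes and changed no call on a member. For the difference of the effects, 988 genes were called, 4951 with the block and 92 to 1541 without 1 library, with 8 members under the block and 1 to 6 without 1 library. With library totals in place of TMM factors, all log2 fold changes with RB98# moved by -0.10 in the median, and the calls were 1690 higher and 3276 lower, against 2530 and 2129, with BID added among the members. For the difference the shift was -0.12 and the calls were 504 higher and 591 lower, against 581 and 407, and the call on MCL1 was lost. The sign turned for BAX with RB98# under library totals (-0.089) and over left-out libraries (-0.081 to 0.11), and for BAK1 in the knockdown in set 2 alone (-0.0061) and over left-out libraries (-0.19 to 0.23). It also turned over left-out libraries for BAX in the knockdown (-0.48 to 0.089) and for the difference of BAX (-0.11 to 0.46) and BCL2L1 (-0.16 to 0.027), none of which was called. The cause was not tested. Apart from those named here or in the report, the block changed no call on a member.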
